A study of Mus musculus with 11 samples.

Results

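Proximal T cell receptor (TCR) signalling genes were followed in regulatory T cells (Tregs) sorted from tumors and from spleens of mice. The set holds 9 genes chosen by symbol: Cd3d, Cd3e, Cd3g, Cd247, Lck, Zap70, Lat, Lcp2 and Cd5. All 9 were among the 14604 genes with deposited values, and all 9 passed the filter on low values that left 13897 genes for testing. The mice carried grafts of MC38, a mouse colon adenocarcinoma cell line. Live cells positive for CD4, GITR and CD25 were sorted as Tregs, from the tumor (tumor-infiltrating Tregs, TI-Tregs) and from the spleen. Wild-type (WT) mice were CD177flox/flox, so their Cd177 gene was floxed but no Cre was named, and 3 spleen and 3 tumor samples were of this kind. Knockout (KO) mice were CD177flox/flox/FOXP3-CreYFP, so that a Cre under Foxp3 control removes Cd177 in cells that express Foxp3, and they gave 3 spleen and 2 tumor samples. Cd177 has no value in the table, so the deletion could not be checked. The methods give an age and a sex for C57BL/6 mice with MC38 grafts and do not say whether these hold for the floxed mice. No value for the purity of the sort was found.

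The TCR itself has no kinase. Its signal leaves through the CD3 chains, encoded by Cd3d, Cd3e and Cd3g, and through the zeta chain encoded by Cd247, which carry tyrosine motifs called ITAMs. The Src-family kinase LCK, held at CD4 or CD8, phosphorylates the ITAMs. ZAP-70 then docks on them and phosphorylates the membrane adaptor LAT and the cytosolic adaptor SLP-76, encoded by Lcp2, around which phospholipase C and other effectors assemble. CD5 is a surface receptor that dampens this signal, and its level in T cells is known to follow the strength of TCR signalling. In Tregs the same machinery is needed for their development and for their suppressive function.

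The 4 signalling chains of the receptor differ in their number of ITAMs. Cd3d, Cd3e and Cd3g encode 1 each, and Cd247 encodes 3. The coding bases below were read from GENCODE release M21 transcripts on GRCm38, from 5′ to 3′ on the coding strand. Each is split over 2 exons, so the coordinates include the intron between them. Capitals mark the codons of the paired tyrosines that LCK phosphorylates and that ZAP-70 binds.
Cd3d, chr9:44986095-44986311, plus strand: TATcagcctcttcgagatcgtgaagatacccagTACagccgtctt
Cd3e, chr9:44999549-45000440, minus strand: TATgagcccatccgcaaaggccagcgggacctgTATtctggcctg
Cd3g, chr9:44970735-44971268, minus strand: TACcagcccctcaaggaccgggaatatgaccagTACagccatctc
Cd247 ITAM 1, chr1:165856451-165857454, plus strand: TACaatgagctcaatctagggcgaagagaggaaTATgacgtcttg
Cd247 ITAM 2, chr1:165858473-165859260, plus strand: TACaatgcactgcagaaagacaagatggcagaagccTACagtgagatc
Cd247 ITAM 3, chr1:165859819-165861042, plus strand: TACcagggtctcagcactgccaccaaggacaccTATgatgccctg
The 6 stretches are 45 bases long except for the second of Cd247, which has 48 and so 1 codon more between its tyrosines. Cd247, with 3 of them, differed between the tissues by -1.27 on the log2(n + 1) scale, and the 3 genes with 1 each by -0.62 to -0.03. Lat (-1.69) and Lck (-1.28), for which no such stretch is listed, differed as well. Whether the number of ITAMs bears on RNA levels was not tested.

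RNA was sequenced after depletion of ribosomal RNA, and the table gives log2(n + 1), where n is the authors' estimated count per gene symbol. Summed n was 712832 to 844331 in the spleen libraries and 1103159 to 1304548 in the tumor libraries. The methods state an approximate read depth for each library, and the totals of n lie well under it. Whether n was rescaled is not stated, so the reads behind each value are not known, and precision is judged from the spread between libraries. Most markers of myeloid cells, fibroblasts and CD8 T and NK cells were higher in tumor libraries. Most markers of B cells, erythroid cells and platelets were lower there, and the values are given beside the pathway below. Foxp3, the lineage factor of Tregs, was present in all libraries, at 5.98 to 6.75 in spleen and 4.72 to 6.12 in tumor. The methods say that spleens and tumors came from the same mice, but the labels do not say which samples share a mouse, and the tests treated all samples as independent. Separate animals per replicate are not stated either, so the p-values measure the spread between these samples. In bulk RNA, fewer T cells in a sample and less RNA per T cell cannot be told apart.

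Most of the proximal pathway was lower in the tumor libraries as deposited. Of the 9 genes, 8 were lower in the tumor libraries and 0 were higher as deposited, whereas all 9 were lower with equal library totals. With each library shifted to equal Cd3e, 4 of the 8 other genes were lower and 1 was higher. Calls came from limma with p-values adjusted by Benjamini and Hochberg, BH, over all tested genes, at a BH-adjusted p below 0.05. As background, 35.9% of all tested genes were lower and 43.1% were higher in tumor by the same call. The median difference of the 9 genes was -0.83 on the log2(n + 1) scale, against 0.08 for all tested genes. That median of all genes was -0.44 with equal library totals, where 7819 genes were lower and 3286 were higher. For 8 of the 9 genes each tumor library lay below each spleen library, a pattern seen for 28.4% of tested genes, and the exception was Cd3g. Lat, Lck and Cd247 differed most. Only 3.20% of tested genes had a difference below that of Lat, 7.27% one below that of Lck and 7.38% one below that of Cd247, whereas 30.9% lay below Cd3d and 45.3% below Cd3g.

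**Figure D1:**
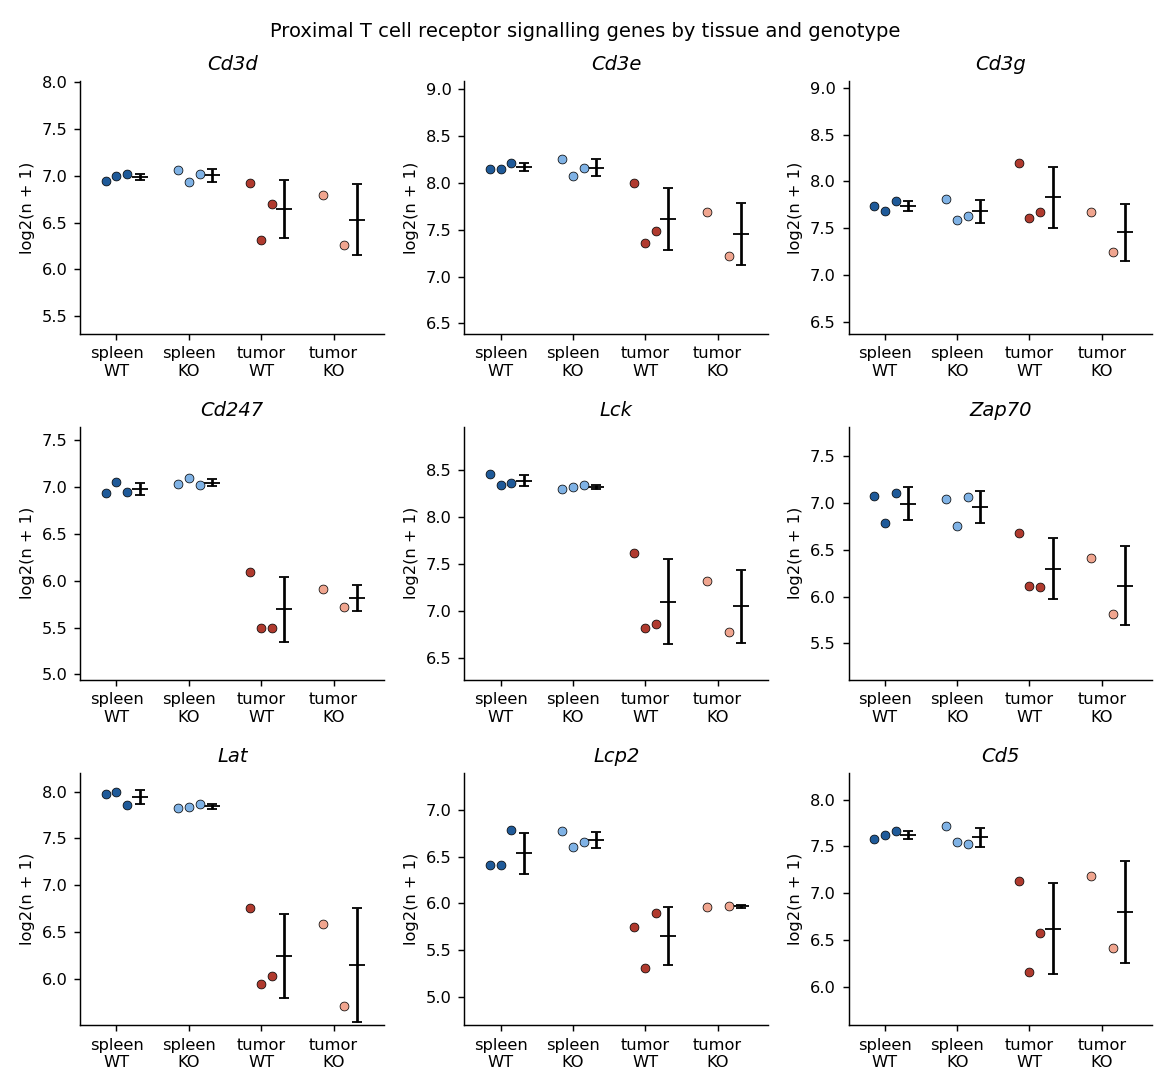
Each panel plots 1 gene, with log2(n + 1) on the y axis and the 4 groups of tissue and genotype on the x axis; points are libraries, and the bar beside them is the mean ± SD. As deposited, tumor libraries lie below all spleen libraries for 8 genes and overlap them for Cd3g, and the tumor libraries spread more than the spleen libraries.

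The CD3 chains pair as epsilon with delta and epsilon with gamma, and their 3 genes lie side by side on chromosome 9 of GRCm38. Cd3g (44969572 to 44980431, minus strand) and Cd3d (44981786 to 44987339, plus strand) run away from each other from starts 1355 bases apart. Cd3e (44998740 to 45009627, minus strand) follows, and the 3 genes span 40056 bases. Cd3d read 6.95, 6.995 and 7.01 in WT spleen, 7.06, 6.93 and 7.02 in KO spleen, 6.92, 6.32 and 6.69 in WT tumor and 6.80 and 6.26 in KO tumor. The highest tumor library missed the lowest spleen library by only 0.0071. Cd3d was 6.995 ± 0.05 (SD, n = 6) over the spleen libraries and 6.60 ± 0.29 (SD, n = 5) over the tumor libraries, and they differed by -0.40 (standard error, SE, 0.11, limma BH-adjusted p = 0.0051). Cd3e, the chain shared by both pairs, read 8.15, 8.14 and 8.22 in WT spleen, 8.26, 8.07 and 8.16 in KO spleen, 7.995, 7.36 and 7.49 in WT tumor and 7.69 and 7.22 in KO tumor. The spleen libraries stayed between 8.07 and 8.26, whereas the tumor libraries ran from 7.22 to 7.995. Cd3e differed by -0.62 (SE 0.11, limma BH-adjusted p = 0.0002).

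Cd3g, the third of the CD3 genes, overlapped between the tissues. It read 7.74, 7.69 and 7.79 in WT spleen, 7.81, 7.59 and 7.64 in KO spleen, 8.20, 7.61 and 7.68 in WT tumor and 7.67 and 7.24 in KO tumor. The first WT tumor library was above every spleen library and the second KO tumor library was below every one, so the tissues overlapped at both ends. The mean was 7.71 ± 0.09 (SD, n = 6) over the spleen libraries and 7.68 ± 0.34 (SD, n = 5) over the tumor libraries. Its difference of -0.03 as deposited had a 95% interval of -0.31 to 0.25 (limma BH-adjusted p = 0.84), and it became -0.65 with equal library totals and -0.81 with quantile normalization, both past the threshold. In an exact two-sided permutation test over the 11 libraries Cd3g had p = 0.797, and each of the other 8 genes had p = 0.0043, the smallest that 5 against 6 libraries allow.

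Since Cd3g and Cd3d start so near to each other and Lat was the gene with the greatest difference, the RefSeq promoter windows of these 3 genes are given, from 250 bases before to 50 bases after the start on GRCm38.p6. All 9 genes matched an entry of that table, with 12 starts. Capitals mark matches, on either strand, to 1 of 4 short motifs, whose letters are given after the windows.
Cd3g, chr9:44980382-44980681, minus strand: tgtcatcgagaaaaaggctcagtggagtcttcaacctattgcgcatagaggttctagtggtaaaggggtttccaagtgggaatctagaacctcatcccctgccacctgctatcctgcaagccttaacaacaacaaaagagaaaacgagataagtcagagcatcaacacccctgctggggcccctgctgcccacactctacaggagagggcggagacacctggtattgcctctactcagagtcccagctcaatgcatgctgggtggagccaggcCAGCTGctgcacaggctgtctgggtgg
Cd3d, chr9:44981536-44981835, plus strand: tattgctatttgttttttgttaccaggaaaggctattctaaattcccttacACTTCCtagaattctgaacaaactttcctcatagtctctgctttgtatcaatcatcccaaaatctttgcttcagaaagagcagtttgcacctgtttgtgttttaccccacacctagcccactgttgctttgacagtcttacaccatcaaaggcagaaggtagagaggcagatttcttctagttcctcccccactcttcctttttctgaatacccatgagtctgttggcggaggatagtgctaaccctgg
Lat, chr7:126369519-126369818, minus strand: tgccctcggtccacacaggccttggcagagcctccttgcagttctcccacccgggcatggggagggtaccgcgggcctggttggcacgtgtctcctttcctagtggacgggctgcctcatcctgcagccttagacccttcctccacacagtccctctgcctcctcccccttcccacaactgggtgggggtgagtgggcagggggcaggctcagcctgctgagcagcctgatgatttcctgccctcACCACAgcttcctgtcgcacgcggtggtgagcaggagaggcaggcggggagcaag
In Cd3g the capitals are an E-box, in Cd3d an ETS core on the opposite strand and in Lat a RUNX match on the opposite strand. The ETS core GGAAGT lay in 7 of the 12 windows, those of Cd247, Cd3d, Cd3e, Cd5, Lck and Zap70, and in 23.8% of the 32851 windows in the table. The RUNX motif TGTGGT lay in 3 of the 12, of Lat, Lck and Zap70, and in 16.8% of all windows. The E-box CAGCTG lay in 2 of the 12, of Cd3g and Lcp2, and in 16.3% of all windows. The letters TATAAA of a TATA box lay in 0 of the 12 windows of the 9 genes, and in 13.6% of all windows. These matches are letters in a window and say nothing about binding.

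Cd247 encodes the zeta chain, which carries 3 of the 6 ITAMs listed above. It read 6.94, 7.06 and 6.95 in WT spleen, 7.03, 7.10 and 7.02 in KO spleen, 6.09, 5.50 and 5.49 in WT tumor and 5.91 and 5.72 in KO tumor. A gap of 0.85 separated the highest tumor library from the lowest spleen library. The mean fell from 7.01 ± 0.06 (SD, n = 6) to 5.74 ± 0.26 (SD, n = 5), a difference of -1.27 (SE 0.10, limma BH-adjusted p = 1.08e-07) or 2.41-fold on the n + 1 scale. Cd247 lies on chromosome 1 from 165788681 to 165877277 on the plus strand, and its exons overlap Gm16565 on the same strand and Pou2f1 on the other. Reads shared between such genes may be split between them, and the sources used here do not say whether strand was used in counting.

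Lck, the kinase that starts the cascade, read 8.46, 8.34 and 8.37 in WT spleen, 8.30, 8.32 and 8.35 in KO spleen, 7.62, 6.82 and 6.85 in WT tumor and 7.32 and 6.77 in KO tumor. The 6 spleen libraries lay within a narrow band and the first WT and the first KO tumor libraries stood above the other 3. Lck was 8.36 ± 0.05 (SD, n = 6) over the spleen libraries and 7.08 ± 0.38 (SD, n = 5) over the tumor libraries, and they differed by -1.28 (SE 0.14, limma BH-adjusted p = 1.73e-06) or 2.43-fold. It lies on chromosome 4 from 129548344 to 129573641 on the minus strand, and holds the microRNA gene Mir8119 on the same strand. Zap70, the kinase that reads the phosphorylated ITAMs, was also lower. It read 7.08, 6.79 and 7.11 in WT spleen, 7.04, 6.76 and 7.07 in KO spleen, 6.68, 6.11 and 6.11 in WT tumor and 6.42 and 5.82 in KO tumor. The second library of each spleen group was its lowest, and the highest tumor library was 0.081 below the lowest of them. Its difference was -0.75 (SE 0.13, limma BH-adjusted p = 0.00019). Zap70 lies on chromosome 1 from 36761798 to 36782818 on the plus strand.

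The adaptors LAT and SLP-76 hold the signalling complex together, one in the membrane and the other in the cytosol. Lat read 7.98, 7.99 and 7.85 in WT spleen, 7.83, 7.83 and 7.87 in KO spleen, 6.76, 5.94 and 6.03 in WT tumor and 6.58 and 5.71 in KO tumor. With a gap of 1.07 between tissues it was the most clearly separated of the 9 genes. The mean fell from 7.89 ± 0.07 (SD, n = 6) to 6.21 ± 0.44 (SD, n = 5), a difference of -1.69 (SE 0.16, limma BH-adjusted p = 5.55e-07) or 3.22-fold. Lat lies on chromosome 7 from 126363824 to 126369570 on the minus strand and holds Mir7058 on the same strand.

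Lcp2 read 6.41, 6.41 and 6.79 in WT spleen, 6.78, 6.60 and 6.66 in KO spleen, 5.75, 5.31 and 5.90 in WT tumor and 5.96 and 5.98 in KO tumor. The second KO tumor library, which was the lowest of the 5 for 6 of the 9 genes, was the highest for Lcp2. The mean fell from 6.61 ± 0.17 (SD, n = 6) to 5.78 ± 0.28 (SD, n = 5), a difference of -0.83 (SE 0.12, limma BH-adjusted p = 3.44e-05). Lcp2 lies on chromosome 11 from 34046920 to 34092295 on the plus strand, opposite exons of 4930469K13Rik. SLP-76 is also made in myeloid cells and platelets, whose part in these values was not tested.

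Cd5, the inhibitory receptor, read 7.58, 7.62 and 7.67 in WT spleen, 7.72, 7.55 and 7.53 in KO spleen, 7.13, 6.16 and 6.58 in WT tumor and 7.19 and 6.42 in KO tumor. The tissues did not overlap, and the first library of each tumor genotype was again the highest of its group. Cd5 went from 7.61 ± 0.07 (SD, n = 6) to 6.69 ± 0.45 (SD, n = 5), a difference of -0.92 (SE 0.16, limma BH-adjusted p = 0.00016). It lies on chromosome 19 from 10717116 to 10739002 on the minus strand. Cd6, which encodes a related surface receptor, differed by -0.54 (SE 0.17, BH-adjusted p = 0.009 by the same test), and its tissues overlapped.

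**Figure D2:**
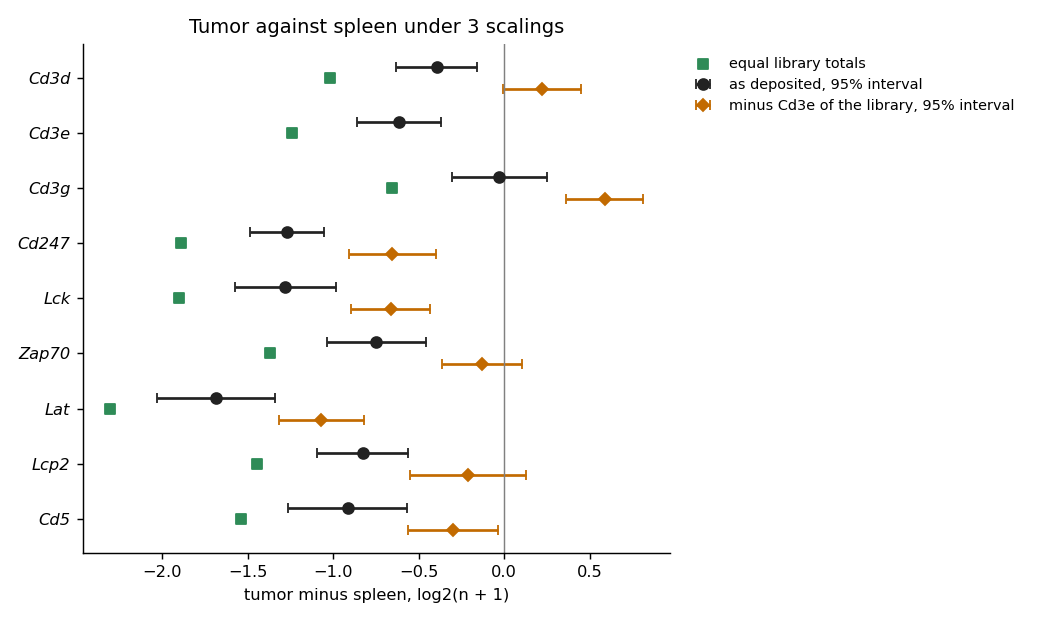
The x axis gives tumor minus spleen in log2(n + 1) for each gene on the y axis; circles are the deposited values with 95% intervals from limma, squares the values with equal library totals, and diamonds the values after Cd3e of the same library was subtracted, with 95% intervals. Cd3d and Cd3g lie above 0 only relative to Cd3e.

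How the members changed against each other was asked by subtracting Cd3e of the same library, which removes a factor common to the library. It is the same fit as the shift to equal Cd3e given above. On this scale the median of all genes moved to 0.70, since Cd3e itself was lower in tumor. Of the other 8 genes, 4 were lower relative to Cd3e and 1 was higher, beside 12.1% of tested genes lower and 62% higher (limma, BH-adjusted). Cd3g minus Cd3e was -0.46 ± 0.04 (SD, n = 6) over the spleen libraries and 0.13 ± 0.12 (SD, n = 5) over the tumor libraries. In single libraries it was -0.41, -0.46 and -0.42 in WT spleen, -0.45, -0.48 and -0.52 in KO spleen, 0.21, 0.24 and 0.19 in WT tumor and -0.01 and 0.02 in KO tumor. The rise of 0.59 (SE 0.11, BH-adjusted p = 8.65e-05) was not a matter of 1 library, as it stayed between 0.56 and 0.62 when single libraries were left out. The 3 WT tumor libraries were above the 2 KO tumor libraries, a pattern picked out after the values were seen, and knockout minus wild type was -0.21 on this scale (limma BH-adjusted p = 0.997).

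Lat minus Cd3e lay between -0.43 and -0.15 in the spleen libraries and between -1.50 and -1.10 in the tumor libraries. Its difference was -1.07 (SE 0.12, limma BH-adjusted p = 3.09e-07). Lck minus Cd3e went from 0.19 ± 0.09 (SD, n = 6) to -0.47 ± 0.11 (SD, n = 5), and Cd247 minus Cd3e from -1.15 ± 0.11 (SD, n = 6) to -1.81 ± 0.19 (SD, n = 5). The differences were -0.66 for Lck (BH-adjusted p = 3.32e-05) and -0.65 for Cd247 (BH-adjusted p = 0.00012) by the same test. For Lat, Lck, Cd247 and Cd3g the tissues did not overlap on this scale, nor did they for Cd3d.

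Zap70 minus Cd3e was -1.19 ± 0.12 (SD, n = 6) over the spleen libraries and -1.32 ± 0.07 (SD, n = 5) over the tumor libraries. Its difference of -0.13 had a 95% interval of -0.36 to 0.10 (limma BH-adjusted p = 0.30). The difference for Lcp2 was -0.21 with an interval of -0.55 to 0.13, and that for Cd3d was 0.22 with an interval of -0.0042 to 0.45, and neither passed the threshold. Cd5 was lower by -0.30 relative to Cd3e (BH-adjusted p = 0.040), and it lost the call in 8 of the 11 fits that left out 1 library, in which its value lay between -0.39 and -0.21.

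**Figure D3:**
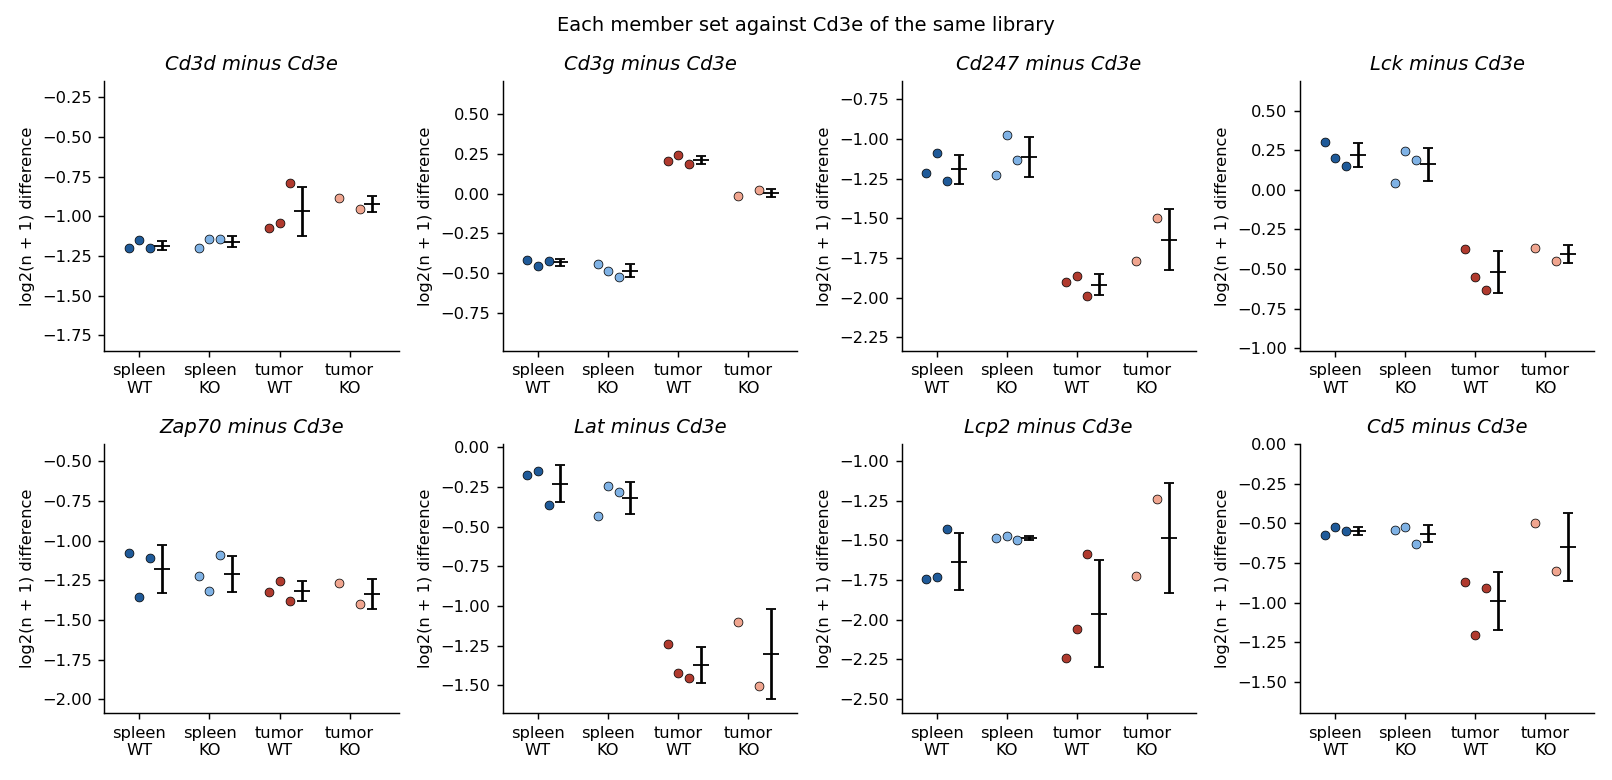
Each panel plots the log2(n + 1) of 1 gene minus that of Cd3e in the same library, by tissue and genotype; points are libraries, and the bar beside them is the mean ± SD. Relative to Cd3e, Cd3g is higher and Lat, Lck and Cd247 are lower in all tumor libraries than in all spleen libraries, and Zap70 overlaps.

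The sample labels also allow TI-Tregs and splenic Tregs to be compared in each genotype, and KO with WT samples in each tissue. In WT mice 7 of the 9 genes were lower in tumor, beside 31.3% of tested genes, and in KO mice 8 of 9 were lower, beside 29.5% (limma, BH-adjusted). The gene that made the difference was Cd3d, at -0.34 in WT (BH-adjusted p = 0.077) and -0.47 in KO mice (BH-adjusted p = 0.037). Cd3g was at 0.09 in WT and -0.22 in KO mice as deposited, neither past the threshold, and at -0.52 and -0.86 with equal library totals, both past it. Lat was at -1.70 (SE 0.23) in WT and -1.70 (SE 0.26) in KO mice. Lck was at -1.29 (SE 0.20) and -1.28 (SE 0.22), and Cd247 at -1.29 (SE 0.14) and -1.23 (SE 0.16). The KO arm rests on 2 tumor libraries, and without the second of them 4 of the 9 genes were called lower, so that Cd3d (-0.20), Cd3e (-0.48), Zap70 (-0.54) and Cd5 (-0.41) lost the call. In that fit the lone KO tumor library was assumed to vary like the other groups.

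For these 9 genes no effect of genotype passed the threshold. For the interaction of tissue and genotype 0 of the 9 genes were called, beside 0% of tested genes, and 0 of the 9 had an unadjusted p below 0.05 (383 of all tested genes did). The interaction values ran from -0.31 for Cd3g, with a 95% interval of -0.84 to 0.22, to 0.20 for Cd5, with an interval of -0.57 to 0.98. Between KO and WT spleens 0 of 9 were called, beside 0% of tested genes, with 0 of 9 and 281 of all genes at an unadjusted p below 0.05. The values in spleen ran from -0.10 for Lat (95% interval -0.61 to 0.42) to 0.14 for Lcp2 (95% interval -0.19 to 0.48). This fit used 1 estimate of the spread for all 4 groups. The 9 genes had a median SD of 0.072 in spleen and 0.33 in tumor. The spleen intervals and p-values therefore also hold tumor spread, and those for tumor also hold spleen spread. A fit of the spleen libraries alone did not change the count of called genes in spleen. Between KO and WT tumors 0 of 9 were called, beside 0.0072% of tested genes, with 0 of 9 and 634 of all genes at an unadjusted p below 0.05. Here the extremes were Cd3g at -0.37 (95% interval -0.76 to 0.02, unadjusted p = 0.062, BH-adjusted p = 0.9997) and Lcp2 at 0.31 (95% interval -0.06 to 0.69, unadjusted p = 0.091, BH-adjusted p = 0.9997), both from limma with BH adjustment.

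The 9 genes spread more in tumor than in spleen. Their SDs were 0.048 to 0.17 in spleen, with a median of 0.072 against 0.15 for all tested genes, and 0.26 to 0.45 in tumor, with a median of 0.33 against 0.21 for all tested genes. Tumor libraries were high or low for most of the genes at once. The first WT tumor library was the highest of the 5 for 7 genes, the first KO tumor library was among the highest 2 for 8 genes, and the second KO tumor library was the lowest for 6. An alternative added after the values were seen left out the first library of each tumor genotype. Since these were chosen for their high values, a lower tumor mean follows from the choice, and the differences were then -1.996 for Lat, -1.54 for Lck, -1.44 for Cd247, -0.81 for Cd3e and -0.57 for Cd3d. Cd3g was then at -0.20.

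After the mean of each tissue and genotype was removed, the genes went together over the 11 libraries, which share their library's scaling and cell make-up. Pearson's r of the 28 pairs without Lcp2 ran from 0.67 to 0.99 with a median of 0.90. The 8 pairs with Lcp2 ran from 0.13 to 0.53. Cd3e with Cd3g had the highest r, 0.99, so that Cd3g followed Cd3e from library to library although its level against Cd3e differed between tissues. In the 5 tumor libraries alone the 36 pairs ran from 0.18 to 0.998 with a median of 0.93, and in the 6 spleen libraries alone from -0.97 to 0.96 with a median of 0.07.

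Over all 11 libraries, the genes most like Cd3e by Pearson's r among all genes tested were Bmp7 (0.99), Sh2d1a (0.99) and Cd226 (0.98). Sh2d1a encodes the adaptor SAP and Cd226 an activating receptor, both of T and NK cells, and Bmp7 a secreted ligand. For Lck they were Bcl11b (0.997), a transcription factor of T cells, Zfp280b (0.996) and Uimc1 (0.996). For Lcp2 they were Glcci1 (0.97), Gm17970 (0.97) and Mbtd1 (0.97). These r values hold the tissue difference and are given as a description of 11 libraries.

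The rest of the TCR pathway was taken from lists of its parts. For every list count below, the share over all tested genes was 35.9% lower and 43.1% higher as deposited. With equal library totals 7819 of 13897 genes were lower and 3286 were higher. Relative to Cd3e 12.1% were lower and 62% were higher. All 3 constant chains of the alpha-beta receptor with values were lower in tumor, at -0.56 for Trac, -1.20 for Trbc1 and -1.64 for Trbc2. Trac overlapped between tissues, with the first WT tumor library at 9.52 inside the spleen range of 9.30 to 9.57, and Trac was at 0.06 relative to Cd3e (limma BH-adjusted p = 0.65). Trbc1 and Trbc2 are near copies, so their split is uncertain. Trdc, Trgc1 and Trgc2 are not among the values used here.

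Of 15 further kinases and adaptors that work beside LCK, ZAP-70, LAT and SLP-76, 12 were lower and 1 was higher, with a median of -0.81. Fyn, the other Src-family kinase of T cells, was at -1.13, and the Tec-family kinase gene Txk was at -1.94. The effector enzyme gene Plcg1 was at -1.57, the exchange factor gene Vav1 at -0.40 and Grap2, whose product GADS bridges LAT and SLP-76, at -1.59. Skap1 was at -1.93 and Trat1 at -1.60, both adaptors of T cells. The exception was Grb2, an adaptor used by nearly all cells, which rose by 1.04. Relative to Cd3e 7 of the 15 were lower and 4 were higher, beside 12.1% and 62% of all tested genes. With equal library totals 14 were lower and 1 was higher, beside 56.3% of all tested genes lower.

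Among 17 genes of the downstream branches 10 were lower and 5 were higher as deposited, with a median of -0.46. With equal library totals 12 were lower and 1 was higher, beside 56.3% of all tested genes lower. Relative to Cd3e 4 were lower and 8 were higher, beside 12.1% and 62% of all tested genes. Prkcq, the protein kinase C of the T cell synapse, fell from 7.31 ± 0.09 (SD, n = 6) to 4.53 ± 0.40 (SD, n = 5), a difference of -2.79 (SE 0.15). Rasgrp1, which loads Ras in T cells, was at -1.38. Bcl10 and Malt1, which act on the way to NF-κB, were higher as deposited, by 0.92 and 0.85, as was Nras by 0.84. With equal library totals Bcl10 was at 0.31, still past the threshold, while Malt1 (0.23) and Nras (0.23) were not.

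Counts of genes that restrain the signal followed the scaling. Of 19 negative regulators, 11 were lower and 5 were higher as deposited, with a median of -0.45. With equal library totals 16 were lower and 0 were higher, beside 56.3% of all tested genes lower. Relative to Cd3e 6 were lower and 9 were higher, beside 12.1% and 62% of all tested genes. Dgka, the diacylglycerol kinase that ends Ras signalling, fell from 8.26 ± 0.05 (SD, n = 6) to 5.39 ± 0.44 (SD, n = 5), a difference of -2.87 (SE 0.16). Lax1, a membrane adaptor, was at -2.56 and Ubash3a, a phosphatase family member of T cells, at -1.56. Csk, the kinase that holds LCK inactive, was at -0.45, and Ptpn22, a phosphatase that acts on LCK and ZAP-70, at -0.29 with overlapping tissues. Dok1 (0.81), Sla (0.71) and Ubash3b (0.40) were the highest as deposited, and with equal library totals none of these 3 passed the threshold, with Ubash3b at -0.21.

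Among 8 co-receptors and co-stimulators 4 were higher and 3 were lower as deposited, with a median of 0.29, while with equal library totals 3 were higher and 4 were lower. Cd4, which brings LCK to the receptor and was used in the sort, was at -0.42, Cd28 at -1.12 and Ptprc, which encodes the phosphatase CD45 that primes LCK, at -1.15. Cd8a (3.99), Cd8b1 (2.48) and Icos (2.21) were higher. Of the other genes of the sort, Tnfrsf18 (GITR) was at 1.08 and Il2ra (CD25) at -0.27, which did not pass (limma BH-adjusted p = 0.12). Foxp3 was at -0.85 with overlapping tissues.

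**Figure D4:**
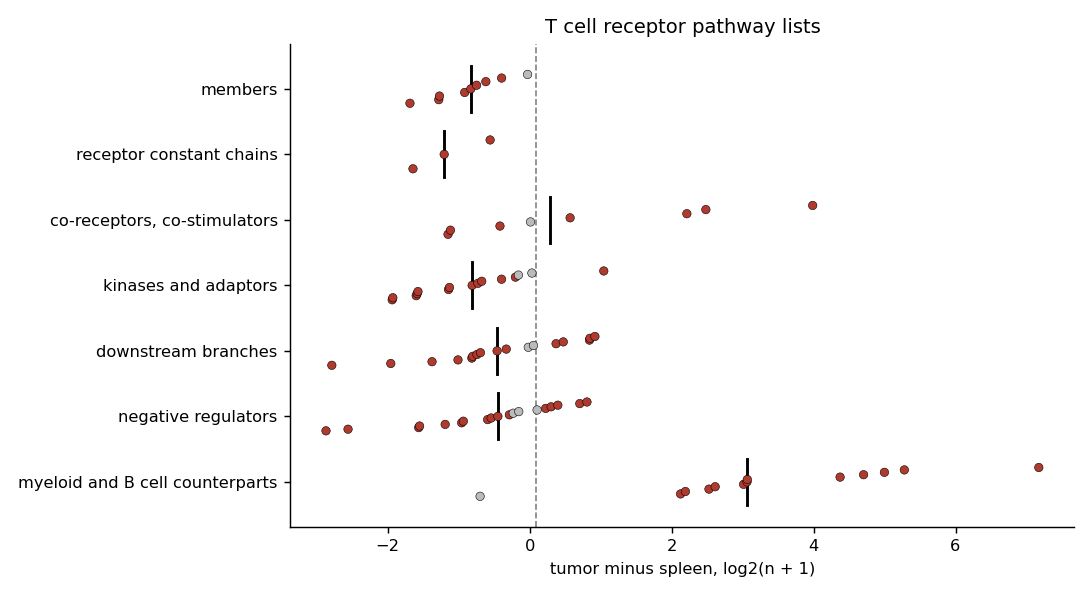
Each point is 1 gene, placed on the x axis by tumor minus spleen in deposited log2(n + 1) and on the y axis by its list; red points passed an adjusted p of 0.05 in limma and grey points did not. The black bar is the list's median and the dashed line the median of all tested genes, 0.08. As deposited, the medians of the TCR-specific lists lie between -1.20 and -0.45, and that of the myeloid and B cell counterparts at 3.06.

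Several of the 9 genes have a counterpart that does like work behind Fc and B cell receptors in myeloid and B cells. A list of 13 genes holds these counterparts and other kinases, receptors and effectors of ITAM signalling in those cells. Of the 13 genes 12 were higher in tumor and 0 were lower as deposited, with a median of 3.06, and with equal library totals 12 were higher and 1 was lower. Syk, the relative of Zap70, read 2.08 to 4.02 in spleen and 5.23 to 5.95 in tumor, a difference of 3.06. Lat2, the relative of Lat, read 1.45 to 2.87 in spleen and 6.04 to 6.34 in tumor, a difference of 4.37. Blnk, the relative of Lcp2, was at 2.13, and Tyrobp, an ITAM adaptor of myeloid cells, at 4.998. The tissues did not overlap for Syk, Lat2 or Blnk. Blk, a B cell kinase, was the one gene that did not pass, at -0.70.

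Markers of other cell types went along with these values. All 16 myeloid markers with values were higher in tumor, and their summed level, log2 of the summed n plus 1, was 8.82 to 9.89 in spleen and 14.37 to 14.80 in tumor. Of 6 fibroblast markers 5 were higher, with sums of 1.84 to 2.18 in spleen and 8.95 to 10.02 in tumor. Of 10 markers of CD8 T and NK cells 6 were higher and 1 was lower, with sums of 5.51 to 6.47 in spleen and 7.11 to 8.96 in tumor. CD8 T cells express the CD3 chains, Lck, Zap70 and Lat as well, and the gate was for CD4. Of 7 B cell markers 4 were lower and 1 was higher, with sums of 7.50 to 8.62 in spleen and 5.31 to 6.42 in tumor, and Pax5 has no value here. Of 8 erythroid and platelet markers 7 were lower and 1, Pf4, was higher, with sums of 7.28 to 10.20 in spleen and 8.10 to 9.29 in tumor. S100a8, S100a9, Dcn, Lum and Pdgfra also have no value here. None of the markers with a value was at 0 in any library. The summed level of the 9 genes was 10.69 to 10.80 in spleen. It was 10.38, 9.70 and 9.86 in WT tumor and 10.13 and 9.62 in KO tumor, beside myeloid sums of 14.37, 14.70 and 14.80 and of 14.40 and 14.54. The 2 tumor libraries with the highest sum of the 9 genes had the 2 lowest myeloid sums. The part of these other cell types in the tumor values was not tested.

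**Figure D5:**
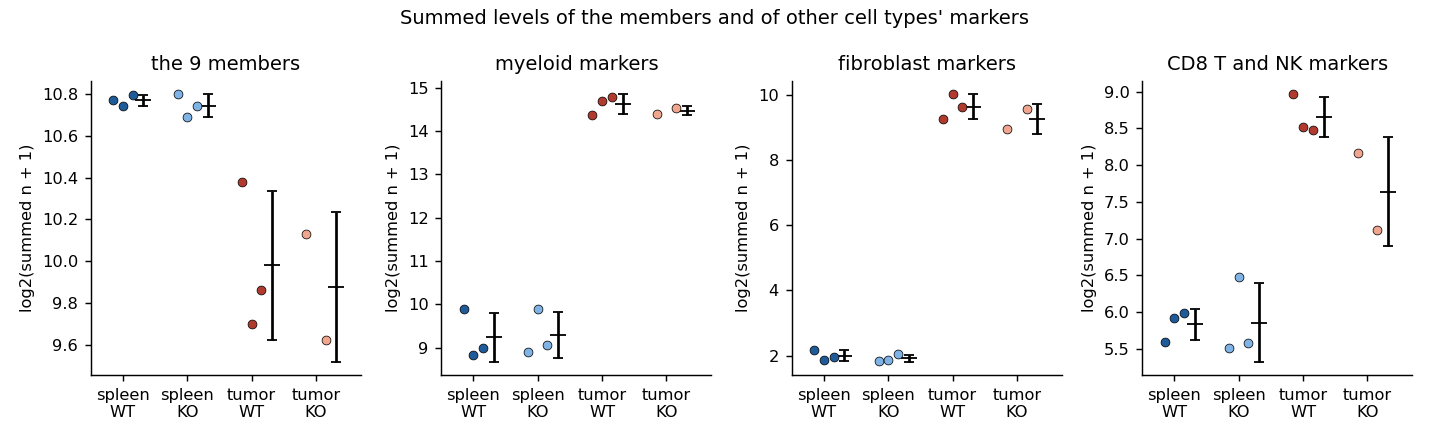
The y axes give log2 of the summed n plus 1 for the 9 genes and for 3 marker lists, each on its own range, by tissue and genotype; points are libraries, and the bar beside them is the mean ± SD. The 9 genes lie at 10.69 to 10.80 in spleen and 9.62 to 10.38 in tumor, whereas the myeloid markers lie at 8.82 to 9.89 and 14.37 to 14.80.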

How the data were processed

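Values of Tregs from 6 spleen and 5 tumor samples were compared, with groups taken from the labels. Ribosomal RNA was depleted and single-end reads were sequenced. The authors ran kallisto against mm10, aggregated estimated counts per gene symbol in sleuth (v0.30.0) and deposited log2(n + 1) values. No source used here gives the kallisto version or the annotation. The methods state an approximate read depth, but since n may have been rescaled the reads behind a value are not known and no counting error is given.

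The deposited log2 values were tested as they stand. A filter kept genes with a mean of 0.5 or more and removed 707. Models were fitted in limma 3.58.1 under R 4.3.3, by lmFit and then eBayes with its trend option. The first set 5 tumor against 6 spleen libraries with genotypes pooled, as the study did. The second had a mean for each tissue and genotype and 1 shared estimate of the spread. P-values were adjusted by Benjamini-Hochberg over all 13897 genes (13896 after Cd3e was subtracted), and calls needed a value under 0.05. For single genes an exact two-sided permutation test was added (scipy 1.17.1). Differences are on the log2(n + 1) scale, which understates changes of low genes. Levels of different genes were not ranked, since whether n is per length is not stated. The fit was tested on simulated data in which 200 genes differed and each gene had 1 spread in both tissues. In the real data far more genes differed and the members spread more in tumor. That test therefore does not measure the accuracy of the calls made here. Alternatives changed the scaling, pseudocount (0.1 or 5), filter, variance model, correction, covariates, block and libraries.

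Named were the 9 genes, their partners, genes among the 3 largest called differences per list and direction, and the 3 genes most like Cd3e, Lck and Lcp2. A few genes of the lists are counted but not reported here by name. The genes and lists were chosen with earlier results of these data known. Sequences came from GENCODE M21 (GRCm38) and RefSeq (GRCm38.p6).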

Additional observations from a re-analysis of the deposited data

How the results depend on the processing

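Over both genotypes the 8 lower calls kept their direction in every fit that left out 1 library (8 of 9 in all 11 fits), with both pseudocounts, with the filter changed and with 1 weight per tissue, the last chosen after seeing the data. The counts moved with the shift to equal Cd3e and with the correction for multiple tests. Lower calls numbered 9, 8 and 9 over both genotypes with quantile normalization, median centring and equal library totals. With each library shifted to equal Cd3e, 4 of the 8 other members were lower and 1 was higher over both genotypes. In WT mice these counts were 4 and 1, and in KO mice 3 and 1. Bonferroni correction of the deposited values left 3, 1 and 0 members lower over both genotypes, in WT and in KO mice. Under the shift to equal Cd3e, Cd3d was at 0.22 over both genotypes, 0.22 (0.215) in WT and 0.24 in KO mice. Cd3g was at 0.59 over both and 0.49 in KO mice, and Lcp2 at 0.00041 in KO mice. In WT mice Cd3g was at -0.72 with quantile normalization, -0.14 with median centring and -0.52 with equal library totals. Relative to Cd3g, the member with the highest difference, in place of Cd3e, 8 members were lower and 0 were higher, and Cd3d was at -0.37.

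With libraries left out in turn, Cd3g ranged from -0.16 to 0.080 over both genotypes (positive without the second KO tumor library) and from -0.10 to 0.20 in WT mice (negative without the first WT tumor library). The count of lower members ranged from 7 to 8 in WT and from 4 to 8 in KO mice, and 4 was reached without the second KO tumor library. The interaction of Cd5 ranged from -0.18 to 0.59. Relative to Cd3e, 3 to 5 members were lower and 1 to 2 were higher, with Cd3d the second when the first WT tumor library was left out. The cause of these changes was not tested.

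Whether the replicate numbers pair the samples is not known. Deviations of same-numbered spleen and tumor libraries had r from -0.13 to 0.04. With so few libraries in a group, these values cannot decide whether such samples share a mouse. With the replicate block 8 members were lower over both genotypes, 7 in WT and 7 in KO mice (Cd3d was lost), and relative to Cd3e 3 were lower and 1 was higher (Cd5 was lost). The reads behind each value are not known, so the limit on small differences was judged from the spread between libraries.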
